A study of Homo sapiens with 6 samples.

Results

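The dual-specificity MAPK phosphatases (DUSP genes) were followed in OVCAR5 cells, an established ovarian cancer cell line, after treatment with the spirocyclic dimer SpiD7. The 10 genes are DUSP1, DUSP2, DUSP4, DUSP5, DUSP6, DUSP7, DUSP8, DUSP10, DUSP14 and DUSP16, taken by symbol from the 29982 gene symbols of the deposited table. All 10 had a row, and all 10 had a mean of at least 1 FPKM (fragments scaled for transcript length and library size) over the 6 libraries, as had 13287 symbols in all. DUSP2 and DUSP8 each lay below 1 FPKM in 2 libraries. Bulk RNA was measured in 6 libraries, 2 from the DMSO vehicle and 4 from 10 μM SpiD7, which was given for 2 h (2 libraries), 6 h (1 library) or 12 h (1 library). No duration is given for the vehicle, and nothing states that the libraries of a group came from separate cultures, so p-values measure the spread between these libraries only.

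MAP kinases are switched on by phosphorylation of a threonine and a tyrosine in their activation loop, and DUSP enzymes remove both phosphates. Several DUSP genes are themselves transcribed in response to MAP kinase signaling, which makes them both brakes on the pathway and a readout of it. The nuclear inducible members (DUSP1, DUSP2, DUSP4 and DUSP5) are immediate-early or early genes of growth factor and stress signaling. DUSP6 and DUSP7 are cytoplasmic and prefer ERK, whereas DUSP8, DUSP10 and DUSP16 prefer the stress kinases JNK and p38. DUSP14 is a small atypical member without the MAP kinase-binding domain of the others.

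The deposited values for the second DMSO library and the second 2 h library are means of both libraries of a group, by the values themselves. Of 18195 rows above 0 in the first DMSO library, 811 had a mean value at a fixed share (0.526, SD 2.7e-05) of that library. For 2 h, 963 of 18722 such rows lay at a share of 0.509 (SD 3.6e-05). Below these shares were 1 and 2 rows, but the limit was placed at the lower end of the same ratios. Those counts were therefore bound to be small. The SDs are over rows picked in a narrow band around that limit, which bounds them as well. The second libraries were therefore recovered as what is left after the first, and every value called recovered rests on that reading. The table holds no counts. The most frequent ratio of low values placed the depth of the other 5 libraries at 0.768 to 1.12 times that of the first DMSO library. Of the summed FPKM, MIR6723 made up 25.0% in the recovered DMSO and 21.8% in the recovered 2 h library, against 5.04% to 9.19% in the other 4. Of the epithelial markers, all 6 were expressed, with KRT8 between 1459 and 2194 FPKM. The ovarian and Müllerian markers WT1, MUC16 and ESR1 stayed below 1 FPKM in each library, and PAX8 lay between 1.64 and 2.12. Of the fibroblast and leukocyte markers, COL1A2, PDGFRB and PTPRC stayed below 1 FPKM, COL1A1 lay between 0.596 and 2.18 and CD68 between 22.7 and 37.3. Summed over 5 such markers, the level was 26.1 and 39.7 in the DMSO libraries and 23.6 to 33.6 in the SpiD7 libraries. Most of this sum was CD68, and its part in the results was not tested.

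Promoter windows are shown for 4 members because 3 of them (DUSP1, DUSP2 and DUSP8) held a match to a motif searched and the fourth, DUSP10, held none. RefSeq (GRCh38.p14) windows of 250 bases before the transcription start were used for 8 of the 10 genes. None was found for DUSP5, and DUSP4 was left out before the motif search. Each is printed 5′ to 3′ on the minus strand of the genome, with capitals marking matches to the cAMP response element TGACGTCA or the E-box CACGTG. DUSP1 lies at chr5:172771196-172771445, DUSP2 at chr2:96145441-96145690, DUSP8 at chr11:1572272-1572521 and DUSP10 at chr1:221742090-221742339.
DUSP1: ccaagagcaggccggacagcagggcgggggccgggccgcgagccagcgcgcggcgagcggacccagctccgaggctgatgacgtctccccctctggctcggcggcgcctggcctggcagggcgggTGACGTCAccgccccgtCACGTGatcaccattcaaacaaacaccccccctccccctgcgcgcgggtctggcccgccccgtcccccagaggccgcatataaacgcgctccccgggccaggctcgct
DUSP2: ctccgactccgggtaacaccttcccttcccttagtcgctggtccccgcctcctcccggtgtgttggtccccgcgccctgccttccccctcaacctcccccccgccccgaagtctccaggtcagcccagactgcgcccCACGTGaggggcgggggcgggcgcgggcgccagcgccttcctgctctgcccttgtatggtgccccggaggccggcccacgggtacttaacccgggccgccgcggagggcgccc
DUSP8: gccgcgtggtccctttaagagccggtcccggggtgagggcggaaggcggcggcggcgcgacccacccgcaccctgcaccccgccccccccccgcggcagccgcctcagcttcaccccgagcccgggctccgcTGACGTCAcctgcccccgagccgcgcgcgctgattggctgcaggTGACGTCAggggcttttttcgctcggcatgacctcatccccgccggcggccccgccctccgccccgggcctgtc
DUSP10: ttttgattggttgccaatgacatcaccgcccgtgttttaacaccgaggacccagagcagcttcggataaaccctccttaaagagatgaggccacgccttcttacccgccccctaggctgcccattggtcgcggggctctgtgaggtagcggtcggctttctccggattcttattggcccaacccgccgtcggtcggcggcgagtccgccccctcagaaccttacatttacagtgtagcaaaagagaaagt

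The cAMP response element, which binds CREB and ATF factors, occurred once in the DUSP1 window, beginning 125 bases before the start, and at 2 places in the DUSP8 window, beginning 118 and 74 bases before the start. Of 35116 RefSeq promoter windows of this length, 1.65% held it. The E-box was found in DUSP1, 108 bases before the start, and in DUSP2, 113 bases before the start, against 6.34% of all windows. The AP-1 motif TGANTCA (6.57% of all windows) and the heat shock element core GAANNTTC (5.78%) had no match in the windows of the 8 genes. All 4 motifs read the same on both strands, and none of the printed matches overlap. A match describes the letters only.

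The levels of the DUSP genes in DMSO depended on the library. DUSP1, DUSP2, DUSP5, DUSP6 and DUSP8 exceeded their first DMSO level more than 2-fold in the recovered DMSO library, as did 8.72% of all 13287 genes. DUSP7 alone was more than 2-fold lower, as were 4.77% of all genes. These are 2 libraries of the same treatment, and the comparison has no test. All 4 SpiD7 libraries lay between the DMSO libraries for 5 members (DUSP1, DUSP2, DUSP5, DUSP6 and DUSP7), against 6.62% of all genes. For 2 members, DUSP10 and DUSP14, all 4 SpiD7 libraries lay above both DMSO libraries, against 8.93% of all genes. RNA was measured in bulk, so that a change in the number of expressing cells and one in RNA per cell cannot be told apart.

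**Figure D1:**
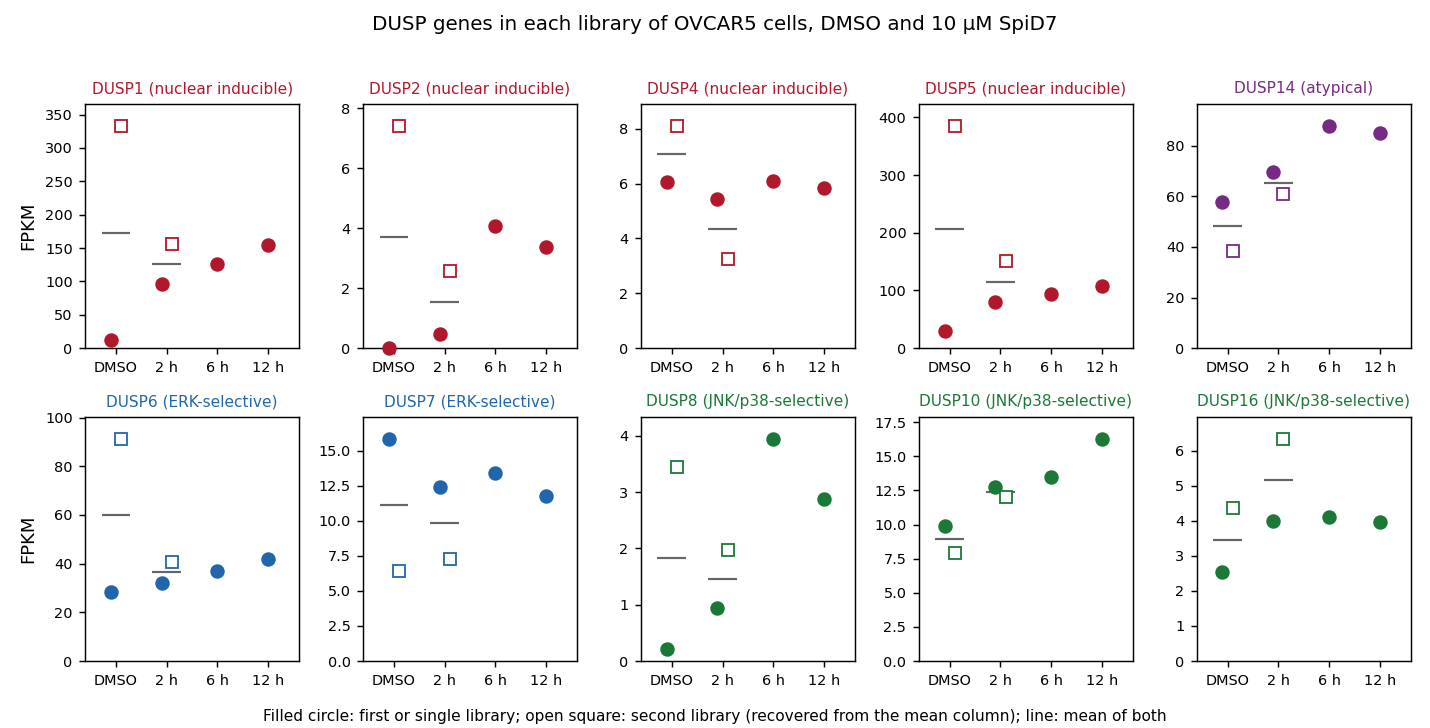
FPKM of each DUSP gene (vertical axes, linear from 0) in DMSO and after 2, 6 and 12 h of SpiD7 (horizontal axes). Filled circles mark the first or single library, open squares the recovered second library and lines the mean FPKM of both. The open square of DMSO stands far above the filled circle for DUSP1, DUSP2, DUSP5, DUSP6 and DUSP8, and every SpiD7 point of DUSP10 and DUSP14 lies above both DMSO points.

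DUSP1 (MKP-1; hg38 chromosome 5, 172768090 to 172771200), the founding nuclear phosphatase that acts on p38, JNK and ERK, was at 11.6 FPKM in the first DMSO library and 332 in the recovered one. The first and recovered libraries of 2 h stood at 95.5 and 157, the 6 h library at 127 and the 12 h library at 154. The DMSO libraries thus differed 28.6-fold and enclosed every SpiD7 value. Unless stated, log2 fold changes are of log2(FPKM + 0.1) against the mean of both DMSO log2 values, not of their FPKM. That of DUSP1 was 0.97 (2 h, SE 1.86), 1.02 (6 h, SE 2.27) and 1.31 (12 h, SE 2.27). Adjusted p-values from limma were 1.0, 0.977 and 0.898. Against the first DMSO library alone the 12 h value was 3.72, and against the recovered one it was -1.11. The mean column that the authors deposited for DMSO, 181 FPKM on the scale of its own comparison, was also above the 12 h level. The log2 difference from it was -0.23.

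DUSP5 (chromosome 10, 110497867 to 110511544), a nuclear phosphatase specific for ERK, had the same order of libraries at its ends. DMSO gave 29.8 FPKM in the first and 384 in the recovered library, and SpiD7 gave 80.1 and 151 (2 h), 93.0 (6 h) and 108 (12 h). Every SpiD7 value lay between the DMSO values, which differed 12.9-fold. The log2 fold changes against both were 0.04 (2 h, SE 1.45), -0.20 (6 h) and 0.01 (12 h, SE 1.77 for each of the single libraries), with limma adjusted p-values of 1.0, 0.998 and 1.0. At 12 h the log2 difference of DUSP5 was 1.85 from the first DMSO library and -1.83 from the recovered one.

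DUSP2 (PAC-1; chromosome 2, 96143169 to 96145440), a nuclear phosphatase of activated lymphoid cells, was listed at 0 in the first DMSO library and at 7.40 FPKM in the recovered one. SpiD7 libraries held 0.463 and 2.58 (2 h), 4.08 (6 h) and 3.38 (12 h), all between these. The log2 fold change was 0.51 (2 h, SE 2.52), 2.27 (6 h) and 2.01 (12 h, SE 3.08 for each single library), with limma adjusted p-values of 1.0, 0.977 and 0.880. These values depend on the pseudocount because of the listed 0, and with a pseudocount of 1 the 2 h value was -0.34. DUSP4 (MKP-2), also nuclear, acts on ERK and JNK. Its DMSO libraries were at 6.05 and 8.08 FPKM, against 5.43 and 3.24 for 2 h, 6.09 for 6 h and 5.82 for 12 h. The DMSO libraries were thus above both 2 h libraries, where the log2 fold change was -0.72 (SE 0.35, unadjusted p = 0.119 and adjusted p = 1.0 from limma). Its log2 difference from the first DMSO library was 0.0097 at 6 h and -0.05 at 12 h.

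Of the ERK-selective members, DUSP6 (MKP-3; chromosome 12, 89348060 to 89352519), a feedback inhibitor induced by ERK signaling, was at 28.5 and 91.1 FPKM in DMSO. Treated cells had 32.2 and 40.8 (2 h), 36.8 (6 h) and 41.9 (12 h). All SpiD7 libraries were slightly above the first DMSO library and far below the recovered one. The log2 fold changes were -0.49 (2 h, SE 0.66), -0.47 (6 h) and -0.28 (12 h, SE 0.81 for each single library), with an adjusted p of 1.0, 0.977 and 0.945 from limma. DUSP7 (chromosome 3, 52048919 to 52056445) had the opposite order in DMSO, 15.8 FPKM in the first and 6.45 in the recovered library. With SpiD7 it measured 12.4 and 7.24 (2 h), 13.4 (6 h) and 11.8 (12 h). In each group with 2 libraries the recovered one was lower, and the log2 fold changes were -0.09 (2 h, SE 0.59), 0.40 (6 h) and 0.22 (12 h, SE 0.72 for each single library), with an adjusted p of 1.0, 0.977 and 0.953 from limma.

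Of the JNK/p38-selective members, DUSP10 (MKP-5; chromosome 1, 221701422 to 221742174), which dephosphorylates p38 and JNK in nucleus and cytoplasm, was at 9.89 and 7.92 FPKM in DMSO. The 2 h libraries were at 12.8 and 12.1, the 6 h library at 13.5 and the 12 h library at 16.3. Every SpiD7 library lay above both DMSO libraries, and the 12 h library was the highest. The log2 fold change was 0.48 (2 h, SE 0.20), 0.60 (6 h) and 0.87 (12 h, SE 0.24 for each single library), a fold of 1.40, 1.51 and 1.83. It did not pass the test, with limma adjusted p-values of 1.0, 0.942 and 0.497. The unadjusted p at 12 h was 0.0284, the only one under 0.05 among the 30 tests of members against DMSO, and 9.19% of all genes had one at 12 h. At 12 h DUSP10 was 0.71 above the first and 1.03 above the recovered DMSO library.

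DUSP8 (chromosome 11, 1554051 to 1571920), which acts on JNK and p38, had low levels that differed 16.0-fold within DMSO. DMSO libraries had 0.215 and 3.44 FPKM, and SpiD7 libraries 0.939 and 1.97 (2 h), 3.94 (6 h) and 2.88 (12 h). Only the 6 h library was above both DMSO libraries. The log2 fold change was 0.47 (2 h, SE 1.38), 1.93 (6 h) and 1.50 (12 h, SE 1.70 for each single library), with limma adjusted p-values of 1.0, 0.977 and 0.838. At 12 h it was 3.24 above the first DMSO library and at -0.25 from the recovered one. DUSP16 (MKP-7; chromosome 12, 12355408 to 12562839), a JNK phosphatase that shuttles between nucleus and cytoplasm, was at 2.53 and 4.36 FPKM in DMSO. Treatment libraries were at 3.999 and 6.32 (2 h), 4.11 (6 h) and 3.96 (12 h). Only the recovered 2 h library was above both DMSO libraries, and the other 3 lay between them. The log2 fold change was 0.58 (2 h, SE 0.41), 0.30 (6 h) and 0.25 (12 h, SE 0.50 for each single library), with limma adjusted p-values of 1.0, 0.977 and 0.916.

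DUSP14 (MKP-6; chromosome 17, 37489845 to 37513501) was at 57.9 and 38.3 FPKM in DMSO, against 69.6 and 60.9 (2 h), 87.7 (6 h) and 85.0 (12 h) in SpiD7. Every SpiD7 library lay above both DMSO libraries, as for DUSP10, and the single libraries at 6 h and 12 h were above both at 2 h. The log2 fold change was 0.47 (2 h, SE 0.28), 0.90 (6 h) and 0.85 (12 h, SE 0.35 for each single library), a fold of 1.38, 1.86 and 1.80. It did not pass the test, with limma adjusted p-values of 1.0, 0.942 and 0.598. At 12 h it was 0.55 above the first and 1.15 above the recovered DMSO library. By level, DUSP1 and DUSP5 had the highest means over the 6 libraries (146 and 141 FPKM), ahead of DUSP14 (66.6), DUSP6 (45.2), DUSP10 (12.1), DUSP7 (11.2), DUSP4 (5.79), DUSP16 (4.22), DUSP2 (2.98) and DUSP8 (2.23). In the first DMSO library DUSP14 was the highest and in the recovered one DUSP5, so that the order of the upper members did not hold across libraries of 1 treatment.

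To determine which DUSP genes changed, each time point was compared with DMSO by limma across all genes. The spread came from DMSO and 2 h, the groups with 2 libraries, and the single 6 h and 12 h libraries were assumed to vary like them. At 2 h, 0 of the 10 members had an adjusted p-value under 0.05 with a change of more than 2-fold, against 0.0226% of all genes. The counts were 0 at 6 h (0.294% of all genes) and 0 at 12 h (0.339%). With an unadjusted p under 0.05 were 0 members at 2 h (2.84% of all genes), 0 at 6 h (5.55%) and 1 at 12 h (9.19%), so that 1 of 10 was close to the background share. More than 2-fold above the mean of both DMSO log2 values were 0 members at 2 h (2.32% of all genes), 3 at 6 h (5.66%) and 3 at 12 h (6.48%). The 3 were DUSP1, DUSP2 and DUSP8 at both times, whose DMSO libraries differed more than 10-fold or included a listed 0. Against the deposited DMSO mean column, an FPKM mean on the scale of its own comparison, their log2 differences were -0.51, 0.07 and 0.995 at 6 h. At 12 h these were -0.23, -0.20 and 0.56. More than 2-fold below the mean of both DMSO log2 values were 0 members at each time (0.662%, 3.1% and 3.76% of all genes). The median log2 fold change over the 10 members was 0.47, 0.50 and 0.55, against -0.01, 0.03 and -0.05 over all genes tested. In comparisons of 6 h and 12 h with 2 h, 0 members passed the test, the lowest adjusted p from limma being 0.834 (DUSP10, 12 h against 2 h).

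The direction of most members depended on the DMSO library used. Against the first DMSO library, DUSP1, DUSP2, DUSP5 and DUSP8 were more than 2-fold higher at each time, against 5.59% of all genes after 2 h, 6.28% after 6 h and 8.21% after 12 h. More than 2-fold lower were 0 members at each time (1.01%, 0.993% and 4.03% of all genes). Against the recovered DMSO library, DUSP1, DUSP2, DUSP5 and DUSP6 were more than 2-fold lower at 12 h (4 members, against 7.56% of all genes), whereas DUSP10 and DUSP14 were more than 2-fold higher (2 members, against 7.01%). The sign of the difference was opposite between the DMSO libraries for 6 members after 2 h, 7 after 6 h and 7 after 12 h, against 59.6%, 38.4% and 33.5% of all genes. The count after 2 h was thus at the background share. Those with 1 sign at all times were DUSP10 and DUSP14. Above both DMSO libraries were 2 members at 2 h (DUSP10 and DUSP14, both 2 h libraries, against 13.7% of all genes), 3 at 6 h (with DUSP8, against 31.6%) and 2 at 12 h (against 30.1%). DUSP4 was below both at 2 h (1 member, against 8.1%) and at 12 h (1 member, against 35.6%), and 0 members were at 6 h (29.2%). At 6 h and 12 h these counts of 10 are at or below the background shares.

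**Figure D2:**
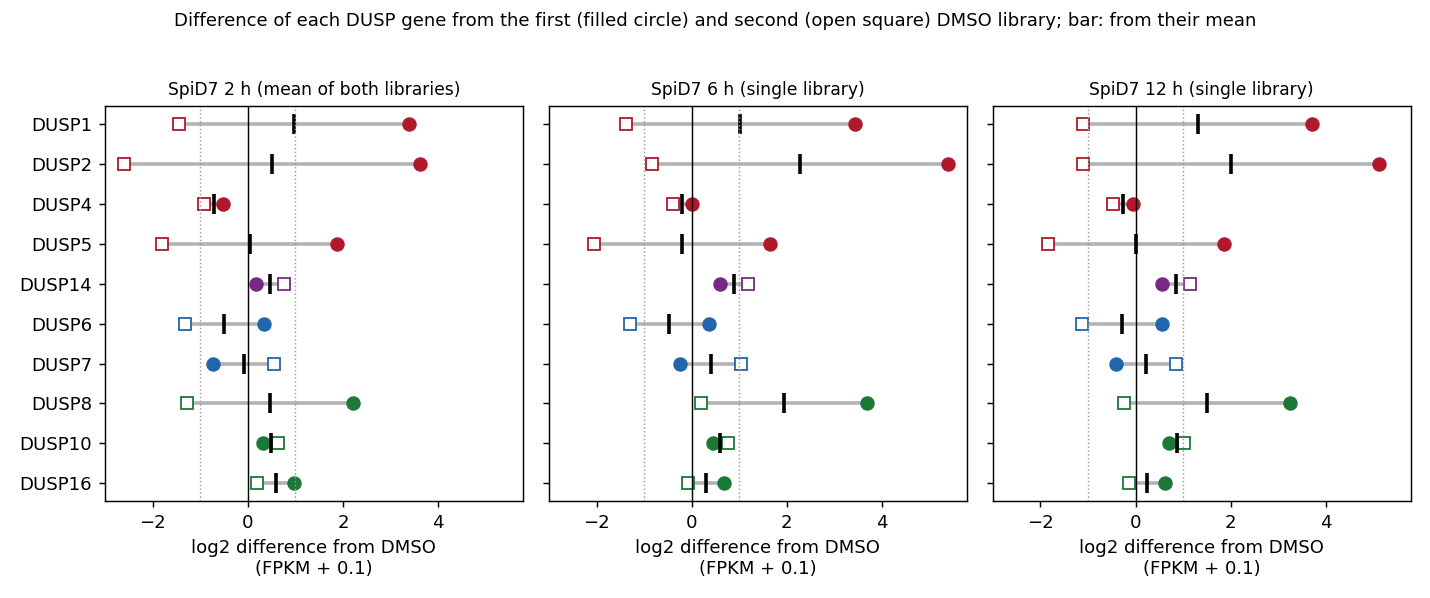
log2 difference of each DUSP gene at 2, 6 and 12 h of SpiD7 from DMSO, with dotted lines at 2-fold. Filled circles are against the first DMSO library, open squares against the recovered one and black bars against the mean of their log2 values. The circles and squares of DUSP1, DUSP2 and DUSP5 fall on opposite sides of 0 at each time, and those of DUSP10 and DUSP14 fall on the same side.

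The genes around the phosphatases were taken from lists of the MAP kinase pathway. Immediate-early transcription factors, which the same signals induce, differed between the DMSO libraries most. All 9 were more than 2-fold higher in the recovered DMSO library, with a median log2 difference of 6.42, against 4.26 for the 4 nuclear inducible DUSP genes and -0.06 for all genes. FOSB was at 0.127 and 156 FPKM in DMSO, and at 55.7 and 142 (2 h), 55.5 (6 h) and 40.7 (12 h) in SpiD7. JUN, the smallest value of the list at 2 h (0.15), was at 28.6 and 187 in DMSO, against 69.9 and 94.4 in the 2 h libraries. EGR2, the smallest at 12 h (-0.80), was at 0.105 and 82.7 in DMSO, against 2.28 in the 12 h library. Against the mean of both DMSO log2 values, 6 of the 9 were more than 2-fold higher after 2 h, 4 after 6 h and 3 after 12 h. The shares of all genes were 2.32%, 5.66% and 6.48%. However, 0 of the 9 lay above both DMSO libraries at 2, 6 or 12 h, against 13.7%, 31.6% and 30.1% of all genes. The limma test was passed by 0 of them at any time. The 12 h median of this list was -0.01, and turned from 3.53 against the first to -1.94 against the recovered DMSO library. That of the nuclear inducible DUSP genes was 0.66, and turned likewise from 2.79 to -1.11.

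The kinases were closer between the DMSO libraries. The 7 ERK cascade kinases had a median log2 difference of -0.02 between the DMSO libraries, the 7 JNK cascade kinases that passed the filter -0.0047 and the 8 p38 cascade kinases 0.10. Their medians at 12 h were -0.13, -0.15 and -0.32, and 0 of these 22 genes passed the limma test at 2, 6 or 12 h. The ends of the lists at 12 h were BRAF (0.46) and ARAF (-0.45), MAPK8 (0.36) and MAP3K5 (-0.65), and MAP2K3 (1.58) and MAPK12 (-0.73). At 2 h they were BRAF (0.41) and MAPK3 (-0.21), MAP2K4 (0.17) and MAP3K11 (-0.22), and MAP2K3 (0.05) and MAPK14 (-0.30). MAP2K3, a kinase that activates p38, was at 35.2 and 37.996 FPKM in DMSO, and at 37.989 and 37.7 (2 h), 72.2 (6 h) and 109 (12 h) in SpiD7. Its DMSO libraries were close, and its levels at 6 h and 12 h exceeded them, with a log2 fold change at 12 h of 1.58 (SE 0.19, adjusted p = 0.297 from limma). MAPK14, which encodes p38α, was at 23.5 and 22.7 FPKM in DMSO, and at 18.3 and 19.2 (2 h), 15.0 (6 h) and 14.3 (12 h) in SpiD7, lower than DMSO in each SpiD7 library (log2 fold change at 12 h -0.69, SE 0.19, adjusted p = 0.497 from limma).

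The 14 ERK feedback and target genes had medians of -0.09 (2 h), 0.06 (6 h) and -0.16 (12 h) on the log2 scale, and 0 passed the limma test. IER3, the lowest at 2 h (-0.84), was at 43.7 and 509 FPKM in DMSO and 61.4 and 114 at 2 h, so that its 2 h libraries lay between the DMSO libraries as those of DUSP1 and DUSP5 did. ETV5 was the highest at 2 h (0.10). PHLDA1, the lowest at 12 h (-1.01), was at 49.7 and 96.1 FPKM in DMSO, and at 46.7 and 41.8 (2 h), 34.9 (6 h) and 34.3 (12 h) in SpiD7, below both DMSO libraries in each SpiD7 library. EPHA4 was the highest at 12 h (0.59). Of 14 other DUSP genes, 7 passed the filter and 0 passed the limma test, with medians of 0.03 at 2 h and 0.38 at 12 h. DUSP28 was the highest at both times (0.34 and 1.09), with 2.41 and 1.38 FPKM in DMSO and 4.01 at 12 h. DUSP9, an ERK-selective phosphatase, was the lowest at 2 h (-0.17) and DUSP22 at 12 h (-0.29).

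**Figure D3:**
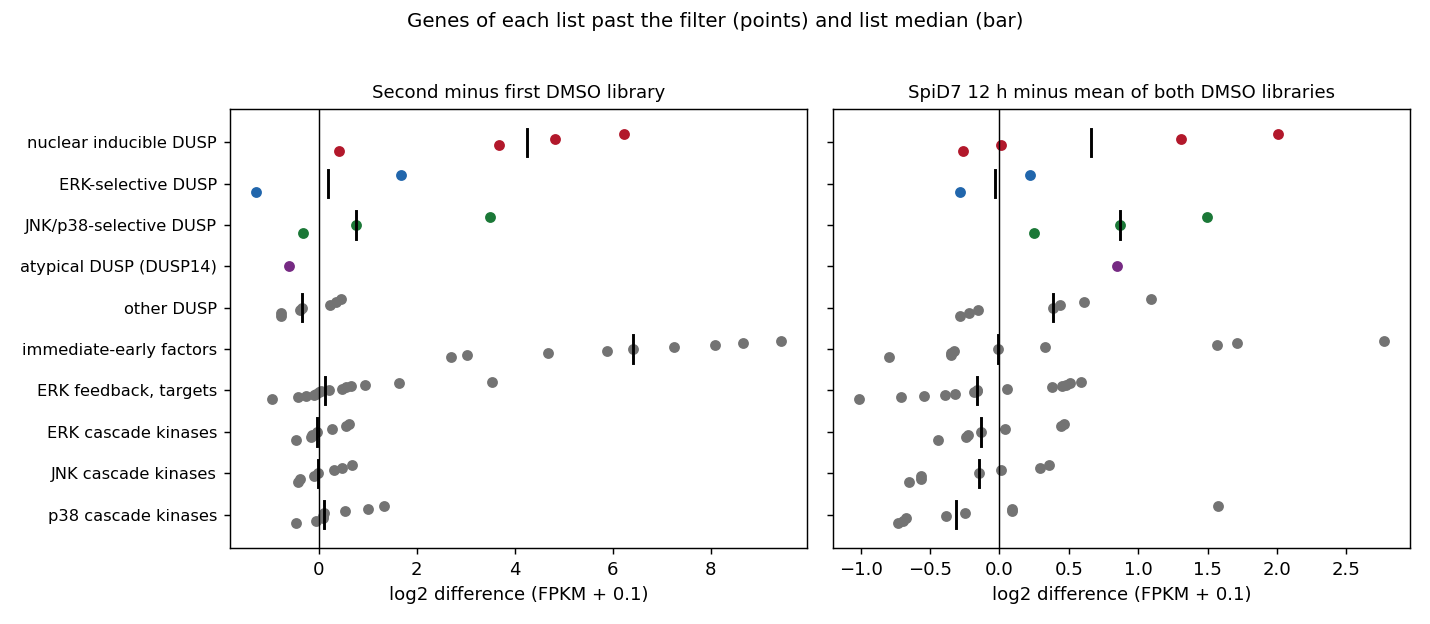
log2 difference of each gene past the filter (points) and list median (bars) for the DUSP classes and the pathway lists, between the recovered and the first DMSO library on the left and between 12 h of SpiD7 and the mean of both DMSO libraries on the right. On the left the 9 immediate-early factors and 3 of the 4 nuclear inducible DUSP genes stand to the right of the kinases, whose medians lie between -0.02 and 0.10.

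The genes most like the best expressed nuclear inducible, ERK-selective and JNK/p38-selective member were ranked by Pearson's r of log2 values over the 6 libraries, as a description, since the genes of a library share its depth and composition. For DUSP1 these were BCL10 (r = 0.996), OTUD1 (0.993) and RHOB (0.992). RHOB was at 23.2 and 99.1 FPKM in DMSO, and at 60.3 and 70.3 (2 h), 76.4 (6 h) and 73.1 (12 h) in SpiD7, with its highest value in the recovered DMSO library as for DUSP1. For DUSP6 they were RAB4A, SPHAR and SPSB3 (0.999, 0.999 and 0.998). RAB4A and SPHAR overlap and were listed with identical values, and count as 1 pattern. RAB4A was at 7.05 and 9.16 FPKM in DMSO, against 28.5 and 91.1 for DUSP6, as r does not measure the size of a difference. For DUSP10 they were ZNF606, ZNF436 and ZNF416 (0.997, 0.992 and 0.992), all zinc finger genes. ZNF416 was at 3.86 and 2.01 FPKM in DMSO, and at 6.20 and 5.15 (2 h), 6.21 (6 h) and 9.56 (12 h) in SpiD7, again with the highest value at 12 h.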

How the data were processed

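RNA was sequenced from 6 libraries of OVCAR5 cells. Per the labels and the paper's methods, the authors used Trim Galore for trimming, TopHat 2.0.8 for alignment and Cufflinks and Cuffdiff 2.1.1 for expression estimates. The methods name a mouse build, whereas the column definitions give hg38 and the loci are human. The unit deposited by the authors is FPKM, given per comparison (4 comparisons, each scaled by Cuffdiff on its own) beside their log2 fold changes, p-values and q-values, which were not used. No value column was without a sample or group (0 columns), and 1 row without a gene name was left out.

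Libraries were joined through the shared first DMSO library (factors 0.972 for 6 h and 0.994 for 12 h). The second libraries were recovered from the mean columns by subtracting the first library at the share its lower limit showed (811 rows for DMSO and 963 for 2 h) and dividing by the same share, on the assumption that both libraries weighed equally. Remainders smaller than 0.2% of the mean column were set to 0. Rows of a symbol were summed. Of 13 member rows, 3 on alternate contigs (DUSP8 and DUSP14) were listed at 0. Deposited starts lay 1 base below those of RefSeq genes in 2873 of 6522 rows with the same end, against 47 with the same start, and 1 was added.

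Genes whose FPKM averaged 1 or more over the 6 libraries were fitted on log2(FPKM + 0.1) by limma 3.58.1 in R 4.3.3 over 4 groups, with Benjamini-Hochberg adjustment across all 13287 genes. A call required an adjusted p under 0.05 and more than 2-fold. The code was tested on simulated data. Python 3.11.15 (pandas 2.3.3) read and summarized the tables. The table holds no counts, so no counting error can be given. The members and lists were chosen with earlier results of these data known. The genes named are all 10 members, the highest and lowest of each pathway list at 2 h and 12 h, and the 3 genes most correlated with the best expressed nuclear inducible, ERK-selective and JNK/p38-selective member. MAPK14, RHOB, RAB4A and ZNF416 were described further after their values were seen. Alternatives were other pseudocounts, filters and scalings, an intensity trend, a replicate block, the mean columns as deposited and leaving out each replicate.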

Additional observations from a re-analysis of the deposited data

How the results depend on the processing

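The number of members called by limma was 0 at each time under every alternative run with a test, leaving out each replicate included. The number more than 2-fold from DMSO was 0 (2 h), 3 (6 h) and 3 (12 h). It became 1 at 2 h with a pseudocount of 0.01 (DUSP2, 2.03). With a pseudocount of 1 it became 1 at 6 h (DUSP8, 1.09) and 1 at 12 h (DUSP1, 1.26). It was 2 at 6 h with median-ratio or upper-quartile scaling and 4 at 12 h with the replicate block. With the mean columns as deposited, which average FPKM and not log2 values, it was 1 at each time, a lower member. This was DUSP2 at 2 h (-1.27) and DUSP5 at 6 h (-1.23) and 12 h (-1.01), and the cause was not tested. None of DUSP1, DUSP2 and DUSP8 was then more than 2-fold higher, though DUSP8 at 6 h was at 0.995. The DMSO mean column kept the scale of its own comparison, in which the share of the first library was 0.526. It was not put on the scale of the 6 h and 12 h libraries. Values next to 2-fold, as those of DUSP8 at 6 h and DUSP5 at 12 h, may therefore fall on either side of it. Omitting single replicates gave 0 to 5 members more than 2-fold from DMSO at 2 h. Fits lacking a DMSO replicate gave 4 to 5 at 6 h and 4 to 6 at 12 h. Fits lacking a 2 h replicate kept the 6 h and 12 h fold changes of the full fit, so the number stayed at 3. Over all these omissions, the median log2 fold change ranged from -1.10 to 0.65 (2 h), -0.24 to 0.64 (6 h) and -0.36 to 0.67 (12 h). The lowest of these medians all came without the first DMSO library. With all libraries kept, the medians at 2, 6 and 12 h were 0.036, 0.46 and 0.39 with a pseudocount of 1. With the mean columns as deposited they were -0.43, 0.12 and -0.09.

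Under the mean columns, the direction turned for DUSP1 at 2, 6 and 12 h (-0.49, -0.51 and -0.23), DUSP2 at 2 h and 12 h (-1.27 and -0.20), DUSP5 at 2 h and 12 h (-0.89 and -1.01) and DUSP8 at 2 h (-0.36). With a pseudocount of 1, DUSP2 turned at 2 h (-0.34) and DUSP5 at 12 h (-0.00011).

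With a DMSO or 2 h library left out, log2 fold changes ranged at 2 h, 6 h and 12 h from -1.44 to 3.38, -1.39 to 3.43 and -1.11 to 3.72 for DUSP1. For DUSP2 they ranged from -2.61 to 3.62, -0.84 to 5.39 and -1.11 to 5.12. For DUSP5 they ranged from -1.81 to 1.88, -2.05 to 1.64 and -1.83 to 1.85. For DUSP6 the ranges were -1.33 to 0.34, -1.31 to 0.37 and -1.12 to 0.55, and for DUSP7 -0.73 to 0.55, -0.24 to 1.04 and -0.42 to 0.86. DUSP8 ranged from -1.27 to 2.22 at 2 h and -0.25 to 3.24 at 12 h, DUSP4 from -0.40 to 0.0097 at 6 h, and DUSP16 from -0.085 to 0.68 at 6 h and -0.13 to 0.63 at 12 h. DUSP10 (0.32 to 1.03) and DUSP14 (0.17 to 1.19) stayed above 0 at each time. For DUSP1, DUSP2, DUSP5, DUSP6 and DUSP8 the highest values came without the recovered DMSO library and the lowest without the first.

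The replicate numbers are not stated to mark a shared batch or day. The deviations of the first libraries from their group means had a correlation of 0.369 over 13287 genes. The replicate block placed the single 6 h and 12 h libraries, whose labels give no replicate number, with the first libraries. With the replicate block, limma called 0 members at each time, and DUSP5 (0.95) and DUSP6 (0.033) turned at 6 h, as did DUSP7 (-0.11). At 12 h, DUSP6 (0.22) and DUSP7 (-0.29) turned. Over all genes, the block gave 0 calls at 2 h in place of 3, 36 at 6 h in place of 39 and 47 at 12 h in place of 45. The lowest adjusted p of a member under it was 0.0772, at 12 h. Without a filter on low values, limma called 0, 96 and 263 genes of 22199. The 3 calls at 2 h were 1 with a pseudocount of 1, another scaling, an intensity trend or a filter at 0.5 FPKM, 6 with a pseudocount of 0.01, and 0 to 21 with a library left out.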
